A study of Mus musculus with 9 samples.

Results

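The whole span from 4.5DDC to 6.5DDC (DDC, days in differentiation conditions) was described over all genes by setting the 3 WT_Prog_4.5 libraries against the 3 WT_Prog_6.5 libraries. These are 6 of the 9 samples of the series, chosen by the time point in their column names; the 3 libraries of 5.5DDC lent their spread to the fit and entered no comparison. Of 38197 gene symbols, 14742 passed the expression filter and were tested.

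The study followed mouse embryonic stem cells that become ventral hindbrain neural stem cells, which make motor neurons and then serotonergic neurons. In both groups, wild-type E14.1 cells of strain 129 were differentiated as a monolayer, with retinoic acid and the Smo agonist SAG from the start until 3DDC by the labels and somewhat longer by the study's methods. At 4.5DDC or 6.5DDC, cells were sorted by prominin-1 with magnetic beads, and polyA-selected TruSeq libraries were made. By their labels the groups differ in time alone, all within 1 cell line; the source names give the days as 4 and 6 where the cell status gives 4.5 and 6.5. Libraries of 4.5DDC held 17820600, 11244489 and 14390493 counts, and those of 6.5DDC held 12851795, 16479971 and 15913820, so that a level of 3 counts corresponded to 0.168, 0.267 and 0.208 CPM (counts scaled to library size) at 4.5DDC and 0.233, 0.182 and 0.189 at 6.5DDC. Nothing in the labels says whether replicates were separate cultures, so p-values measure only the spread between these samples.

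Neural stem cells of the early neural tube line the ventricle as an epithelium, divide fast, and carry RNA-binding and chromatin proteins that they share with the younger embryo. As they age, their cycle lengthens, radial glial and nuclear factor I genes come on, and the types of neuron they leave behind change. Neurons that have left the cycle turn on genes for neurites, synapses and excitability, many of which are unusually long.

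Replicate 1 stood apart at both time points. The leading axis of a principal component analysis of the 6 libraries held 51.7% of the variance and parted the groups, with scores of −47.7, −56.1 and −36.9 at 4.5DDC and 28.3, 58.8 and 53.5 at 6.5DDC. The next axis, with 25.1%, set replicate 1 (29.4 at 4.5DDC and 59.1 at 6.5DDC) apart from replicates 2 and 3 (−32.7 and −10.5 at 4.5DDC, −12.9 and −32.4 at 6.5DDC). Replicates 2 and 3 were closest to each other at each time, at correlations of 0.977 and 0.983 over all genes tested, against 0.964 and 0.967 for the pairs with replicate 1 at 4.5DDC and 0.959 and 0.945 at 6.5DDC. Labels name no batch, and the cause of the difference was not tested.

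Markers of neural stem cells were present in every library, with those of neurons beside them. The sorted antigen itself, Prom1, was measured at 89.3, 62.8 and 85.2 FPKM at 4.5DDC and 207, 187 and 154 FPKM at 6.5DDC. Its level rose (log2 fold change 1.19 ± 0.18, adjusted p = 0.0036), and the groups did not overlap. Summed over Prom1, Sox1, Sox2, Sox3, Nes and Nkx2-2, neural stem cell markers reached 348, 339 and 359 FPKM at 4.5DDC and 472, 475 and 411 FPKM at 6.5DDC, with Nes the most abundant at 4.5DDC. Without Prom1 they summed to 259, 276 and 274 FPKM at 4.5DDC and 264, 288 and 257 FPKM at 6.5DDC, and these groups overlapped. A wider list of 15 neural stem cell genes, with Vim the most abundant, summed to 2798, 3017 and 2606 FPKM at 4.5DDC. At 6.5DDC it summed to 3733, 3543 and 3693 FPKM, without overlap. Of its members 3 were called higher, Prom1, Cdh2 and Rfx4, and 1 lower, Sox3, with a median of 0.05. Without 4.5DDC replicate 2 or 6.5DDC replicate 2, 1 was higher and 0 lower. Sox3 was called lower, at 4.83, 14.4 and 5.61 FPKM at 4.5DDC and 2.11, 1.44 and 3.59 FPKM at 6.5DDC (log2 fold change −1.80 ± 0.49, adjusted p = 0.033), without overlap; the call was lost in 6 of the 22 alternatives, among them at adjusted p of 0.12 without 4.5DDC replicate 2, 0.067 without 6.5DDC replicate 1 and 0.12 without 6.5DDC replicate 2, and over all alternatives its p ran from 0.0017 to 0.12. Sox1, Sox2, Nes and Nkx2-2 were not called. Neuron markers (Dcx, Stmn2, Elavl3 and Snap25; Tubb3 was not analysed here) summed to 57.4, 182 and 126 FPKM at 4.5DDC and 123, 312 and 339 FPKM at 6.5DDC. Stmn2 was the most abundant of these 4 in every library but none of the 4 was called. Replicate 1 held least at each time, and the groups overlapped. In such bulk samples, fewer cells of a type and less RNA per cell cannot be told apart.

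By edgeR with Benjamini-Hochberg adjustment at 0.05, 2763 of 14742 genes (18.7%) changed, 1358 higher (9.21%) and 1405 lower (9.53%) at 6.5DDC, around a median log2 fold change of 0.0040 over all genes tested. Of the changed genes, 755 (5.12% of those tested) rose and 714 (4.84%) fell by at least 1 on the log2 scale. FPKM of the groups did not overlap for 5093 genes (34.5%), among them 1257 of the genes called higher and 1275 of those called lower. Mean FPKM moved in the direction of the call for 2761 of the 2763. Genes that fell were the more abundant: their median level at 4.5DDC was 23.9 FPKM, against 12.5 FPKM at 6.5DDC for genes that rose. Counts of calls leaned on single libraries. Without 4.5DDC replicate 2, 1152 genes were called (644 of them lower; 359 higher and 436 lower by at least 1), and without 6.5DDC replicate 2, 1125 (574 higher, 551 lower; 423 and 416 by at least 1); without 4.5DDC replicate 3, 876 were higher. Counts of list members without a library are therefore to be read against all genes in that same fit, which were 3.36% higher and 4.25% lower without 4.5DDC replicate 2 and 3.86% higher and 3.70% lower without 6.5DDC replicate 2. Genes described with values below as called kept their call under all 22 alternative settings unless said otherwise. Changes are given as log2 fold change ± standard error.

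**Figure D1:**
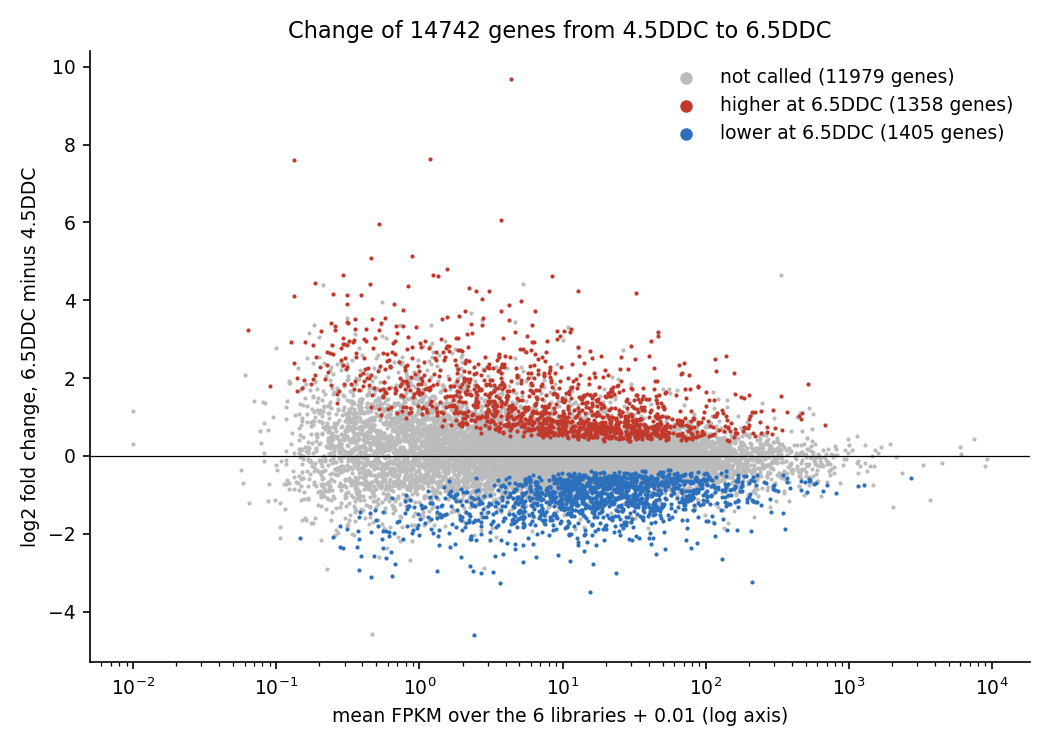
Change from 4.5DDC to 6.5DDC (log2 fold change) against the mean FPKM of the 6 libraries (log axis), 1 point for each of 14742 genes tested, coloured by call. Of these, 1358 were called higher and 1405 lower, and the genes that fell reach further into the abundant range.

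DNA replication had the lowest median of the 68 lists, which were chosen with earlier results of these data known. The list holds helicase, polymerase, clamp and chromatin assembly genes that act at the fork. Of 46 genes tested of 48 listed, 40 fell, 87% against 9.53% of all genes, and the list's median was −1.43 against 0.0040. Median deviations of its members from their 4.5DDC mean were −0.19, 0.05 and 0.14 at 4.5DDC and −1.01, −1.62 and −1.86 at 6.5DDC (log2 CPM), so replicate 1 had fallen least. Uhrf1, which brings the maintenance methyltransferase to newly copied DNA, was measured at 116, 139 and 134 FPKM at 4.5DDC and 42, 20.9 and 25.9 FPKM at 6.5DDC (log2 fold change −2.36 ± 0.23, adjusted p = 8.4e-04). Pold1, the catalytic subunit of DNA polymerase delta, read 18.9, 25 and 15.1 FPKM at 4.5DDC and 6.94, 3.91 and 6.94 FPKM at 6.5DDC (log2 fold change −2.29 ± 0.36, adjusted p = 0.0041). Chaf1b, a subunit of the factor that lays histones on new DNA, gave 41, 51.5 and 50.7 FPKM at 4.5DDC and 15.8, 16 and 8.44 FPKM at 6.5DDC (log2 fold change −2.15 ± 0.23, adjusted p = 0.0011). For these 3 genes every 6.5DDC library lay below every 4.5DDC library. Mcm7, of the replicative helicase, was the most abundant member and stood at 177, 197 and 199 FPKM at 4.5DDC and 93.8, 73.7 and 55.8 FPKM at 6.5DDC (log2 fold change −1.62 ± 0.18, adjusted p = 0.0011). Rrm2, which makes deoxyribonucleotides, stood at 152, 201 and 206 FPKM at 4.5DDC and 58.2, 44.8 and 33.6 FPKM at 6.5DDC (log2 fold change −2.06 ± 0.31, adjusted p = 0.0035). Neither overlapped between groups, and 6.5DDC replicate 3 was lowest for both.

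Mitosis genes fell almost as a whole. They build the spindle and the kinetochore, drive entry into division and release the sister chromatids. Of 52 tested of 52 listed, 51 were lower (98.1%), with a median of −1.19. Median deviations were −0.16, −0.01 and 0.17 at 4.5DDC and −0.84, −1.06 and −1.70 at 6.5DDC (log2 CPM). Espl1, the protease that cleaves cohesin at anaphase, was measured at 12.5, 17.3 and 12.4 FPKM at 4.5DDC and 4.05, 3.89 and 3.59 FPKM at 6.5DDC (log2 fold change −1.87 ± 0.15, adjusted p = 4.7e-04). Plk1, a kinase of mitotic entry and spindle assembly, read 34, 45.7 and 28.3 FPKM at 4.5DDC and 13.5, 8.14 and 9.09 FPKM at 6.5DDC (log2 fold change −1.79 ± 0.22, adjusted p = 0.0017). Spc24, a part of the outer kinetochore, gave 22.2, 31.6 and 19.8 FPKM at 4.5DDC and 11.2, 5.85 and 5.1 FPKM at 6.5DDC (log2 fold change −1.74 ± 0.31, adjusted p = 0.0061). Groups did not overlap for any of the 3. Neither this count nor that of DNA replication moved by more than 1.5-fold when any library was left out.

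Promoters of these genes carry known cell cycle letters, shown here because replication and mitosis genes had the largest shares of falls. A match is a description, not a site or a cause. RefSeq promoters of build GRCm38.p6 held a cell cycle genes homology region, TTTGAA on either strand, in 33 of the 43 mitosis genes matched (76.7%), against 13.7% of 9997 tested genes and 17.9% of all 32851 promoters. CCAAT lay on either strand in 34 of the 43 (79.1%) and in 24 of 38 replication genes (63.2%). It lay in 43.5% of tested genes and 37.4% of all promoters. An E2F site, GGCGGGAA on either strand, lay in 8 of 38 replication genes (21.1%) and 0 of the 43 mitosis genes. Its shares were 4.77% of tested genes and 2.19% of all promoters. A gene was counted if any of its promoters matched, whereas the share of all promoters counts each promoter separately. Among the 3 named replication genes with the largest fall, Pold1 had the E2F letters, Uhrf1 had them at 1 of its 2 starts, and Chaf1b did not, and Spc24 had no promoter entry. Windows are printed 5′ to 3′ on the strand of the gene, for Espl1 at chr15:102296043-102296342 on the plus strand, for Plk1 at chr7:122159185-122159484 on the plus strand, for Uhrf1 (the first of its starts) at chr17:56303087-56303386 on the plus strand and for Pold1 at chr7:44548766-44549065 on the minus strand. Capitals mark TTTGAA and CCAAT in Espl1 and Plk1 and GGCGGGAA in Uhrf1 and Pold1, or their reverse complements.
Espl1: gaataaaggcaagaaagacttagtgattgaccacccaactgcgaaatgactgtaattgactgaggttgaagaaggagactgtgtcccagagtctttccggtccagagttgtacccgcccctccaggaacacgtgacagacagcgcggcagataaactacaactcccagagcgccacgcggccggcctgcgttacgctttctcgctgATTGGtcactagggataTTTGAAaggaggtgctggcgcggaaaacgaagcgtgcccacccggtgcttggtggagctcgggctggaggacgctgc
Plk1: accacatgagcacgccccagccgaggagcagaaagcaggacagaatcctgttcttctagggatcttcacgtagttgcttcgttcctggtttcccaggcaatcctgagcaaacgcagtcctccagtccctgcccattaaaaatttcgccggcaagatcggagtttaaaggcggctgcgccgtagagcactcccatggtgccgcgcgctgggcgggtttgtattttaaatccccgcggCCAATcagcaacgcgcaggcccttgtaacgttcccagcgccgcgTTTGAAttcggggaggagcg
Uhrf1: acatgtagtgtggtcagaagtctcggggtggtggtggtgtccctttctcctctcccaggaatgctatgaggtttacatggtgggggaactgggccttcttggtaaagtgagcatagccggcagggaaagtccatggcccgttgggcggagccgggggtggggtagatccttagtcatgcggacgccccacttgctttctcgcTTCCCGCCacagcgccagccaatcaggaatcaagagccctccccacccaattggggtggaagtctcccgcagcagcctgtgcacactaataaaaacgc
Pold1: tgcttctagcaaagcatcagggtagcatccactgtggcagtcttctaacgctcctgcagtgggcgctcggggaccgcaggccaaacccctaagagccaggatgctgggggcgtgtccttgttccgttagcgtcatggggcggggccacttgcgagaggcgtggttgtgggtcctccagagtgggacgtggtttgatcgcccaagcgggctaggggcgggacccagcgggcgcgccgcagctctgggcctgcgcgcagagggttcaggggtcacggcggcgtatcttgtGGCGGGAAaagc

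Regulators of the G1 phase moved with them, though by fewer genes. Cyclins and E2F factors push cells into S phase, and CDK inhibitors and pocket proteins hold them back. Among 33 tested, 17 fell (51.5%) and 3 rose (9.09%, median −0.77); the count of falls was 9 without 4.5DDC replicate 2 and 8 without 6.5DDC replicate 2. Ccne1, the cyclin of S phase entry, was measured at 22.7, 33.1 and 29.7 FPKM at 4.5DDC and 8.33, 5.57 and 3.98 FPKM at 6.5DDC (log2 fold change −2.29 ± 0.38, adjusted p = 0.0049). E2f7, a repressor of E2F targets, read 11.3, 12.3 and 12.1 FPKM at 4.5DDC and 2.65, 2.55 and 2.13 FPKM at 6.5DDC (log2 fold change −1.96 ± 0.19, adjusted p = 8.4e-04). Of 23 forkhead factors tested, 1 rose (4.35%) and 2 fell (8.7%), with a median of 0.18; rises numbered 2 without 4.5DDC replicate 1 or 5.5DDC replicate 1 or 6.5DDC replicate 1 and 0 without 4.5DDC replicate 2 or 3 or 5.5DDC replicate 2 or 3 or 6.5DDC replicate 2 or 3. Neither share stood above the 9.21% higher and 9.53% lower of all genes, nor did that of G1 genes that rose. With replicates 2 and 3 only, an alternative chosen after seeing the data, 9 of the 23 forkhead factors rose and 3 fell. In that fit 16.5% of all genes rose and 14.8% fell, so that forkhead rises stood above them. Foxm1, the forkhead factor that drives mitotic genes, gave 48.9, 54 and 60.3 FPKM at 4.5DDC and 21.8, 19.6 and 14.1 FPKM at 6.5DDC (log2 fold change −1.66 ± 0.16, adjusted p = 8.4e-04). Groups did not overlap for Ccne1, E2f7 or Foxm1, and levels at 6.5DDC were highest in replicate 1. In the other direction, Mxi1, a Max partner that opposes Myc, read 8.36, 7.5 and 8.51 FPKM at 4.5DDC and 16.2, 15.5 and 17.4 FPKM at 6.5DDC (log2 fold change 0.998 ± 0.12, adjusted p = 0.0015). Its groups were apart as well. The D cyclin Ccnd1, also without overlap, stood at 141, 116 and 99.3 FPKM at 4.5DDC and 48.6, 17.2 and 13.2 FPKM at 6.5DDC (log2 fold change −2.15 ± 0.46, adjusted p = 0.013), and its call was lost without a library, at adjusted p of 0.06 without 6.5DDC replicate 2. Over all alternatives that p ran from 1.6e-05 to 0.06.

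**Figure D2:**
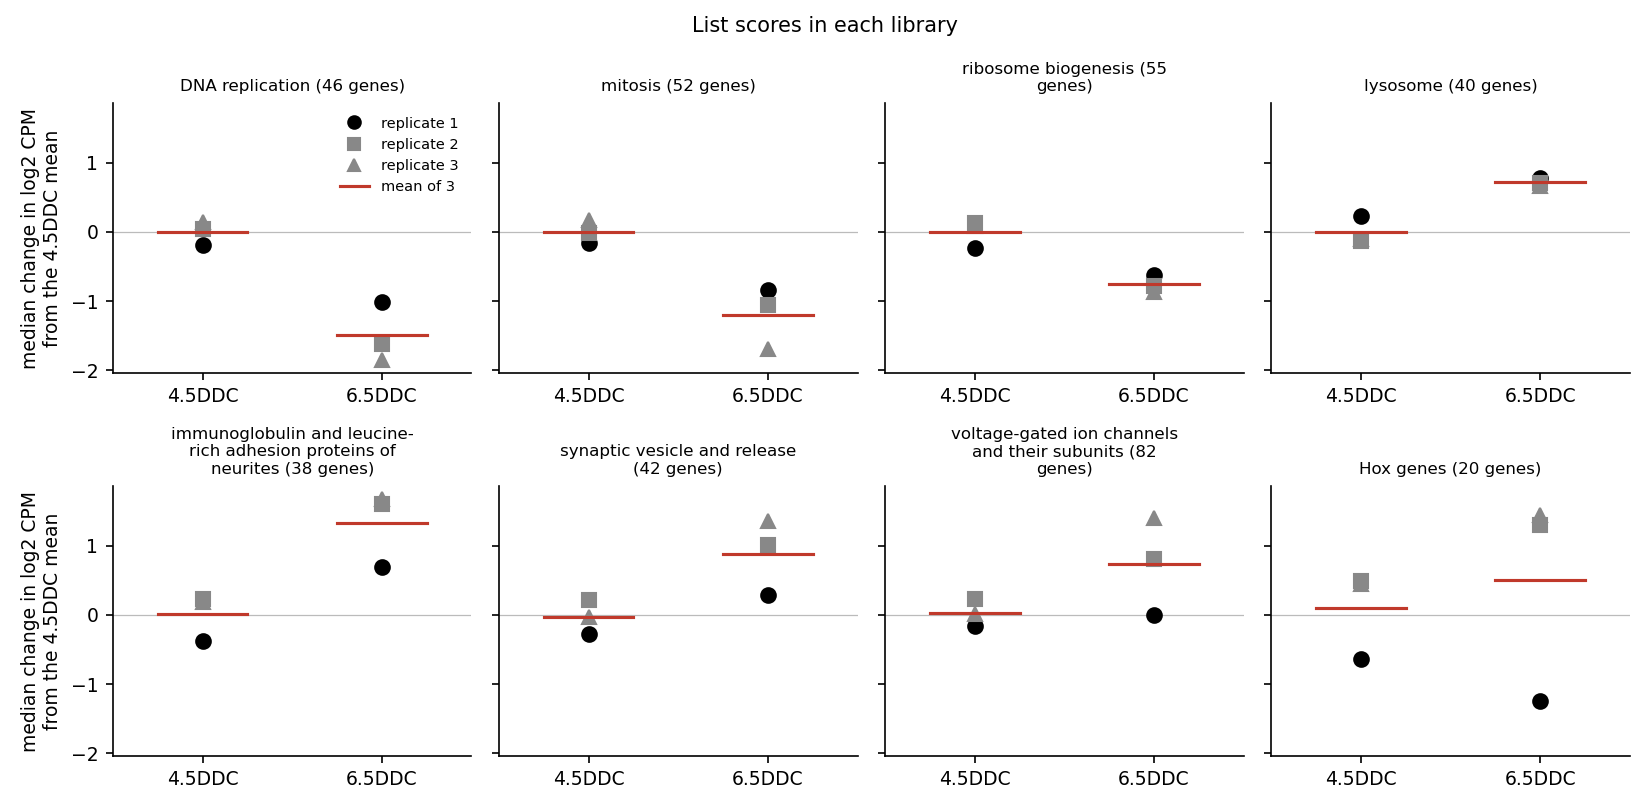
Median change of each gene list in each library, in log2 CPM relative to the mean of 4.5DDC. Symbols are replicate 1 (circle), 2 (square) and 3 (triangle), and red bars are group means; DNA replication reached −1.01, −1.62 and −1.86 at 6.5DDC, and replicate 1 had moved least.

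Repair of broken and crosslinked DNA by homologous recombination fell alongside. Its enzymes act mainly during and after the copying of DNA. Of 31 genes tested, 21 were lower (67.7%, median −1.15), and no single library moved this count by more than 1.5-fold. Exo1, a nuclease that resects DNA ends, was measured at 8.66, 11.6 and 11.4 FPKM at 4.5DDC and 3.45, 2.45 and 2.11 FPKM at 6.5DDC (log2 fold change −1.999 ± 0.23, adjusted p = 0.0014). Chek1, the checkpoint kinase of stalled forks, gave 44.2, 54.4 and 58.8 FPKM at 4.5DDC and 24.4, 17.4 and 17.8 FPKM at 6.5DDC (log2 fold change −1.38 ± 0.27, adjusted p = 0.0085). Both were lower in every library of 6.5DDC than in any of 4.5DDC.

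Genes for making ribosomes fell, while few of those for ribosomal proteins were called. Ribosome biogenesis factors process ribosomal RNA in the nucleolus. Of 55 tested, 37 were lower (67.3%, median −0.73), which became 23 without 4.5DDC replicate 2 and 20 without 6.5DDC replicate 2. Rrp12, which helps export the subunits, was measured at 6.3, 10.8 and 7.11 FPKM at 4.5DDC and 2.54, 1.73 and 3.07 FPKM at 6.5DDC (log2 fold change −1.73 ± 0.26, adjusted p = 0.0031). Npm1, the abundant nucleolar chaperone, read 609, 785 and 753 FPKM at 4.5DDC and 467, 433 and 356 FPKM at 6.5DDC (log2 fold change −0.73 ± 0.15, adjusted p = 0.012). Of 20 aminoacyl-tRNA synthetases tested, 6 fell (30%), with a median of −0.48; falls numbered 2 without 4.5DDC replicate 2, 3 without 4.5DDC replicate 3 or 6.5DDC replicate 3 and 1 without 6.5DDC replicate 2. For the aminoacyl-tRNA synthetase of valine, Vars, levels were 80.4, 135 and 104 FPKM at 4.5DDC and 36.5, 43.3 and 44.7 FPKM at 6.5DDC (log2 fold change −1.86 ± 0.26, adjusted p = 0.0026). Groups stayed apart for Rrp12, Npm1 and Vars. Among 82 cytosolic ribosomal protein genes the median was −0.26 and only 1 fell, Rps2, whose call was lost in 9 of the 22 alternatives, at adjusted p of 0.14 without 4.5DDC replicate 2, 0.053 without 4.5DDC replicate 3, 0.053 without 5.5DDC replicate 2, 0.062 without 5.5DDC replicate 3, 0.077 without 6.5DDC replicate 1 and 0.13 without 6.5DDC replicate 2; over all alternatives the p for Rps2 ran from 0.013 to 0.14. The numbers higher were 0 by edgeR after Benjamini-Hochberg adjustment, 4 at unadjusted p under 0.05, 3 by DESeq2 and 1 by limma voom, and those lower 1 by edgeR after Benjamini-Hochberg adjustment, 16 at unadjusted p under 0.05, 11 by DESeq2 and 2 by limma voom. The edgeR count of falls was 3 without 4.5DDC replicate 1 or 6.5DDC replicate 1, 0 without 4.5DDC replicate 2 or 5.5DDC replicate 2 or 3 or 6.5DDC replicate 2, 8 without 4.5DDC replicate 3, 6 without 5.5DDC replicate 1 and 2 without 6.5DDC replicate 3, and that of rises 1 without 6.5DDC replicate 3.

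Some genes shared with the early embryo fell. They include factors of pluripotent cells and RNA-binding proteins that keep developmental timing early. Of 9 pluripotency and early embryo genes tested, 3 fell (33.3%, median −0.96). Sall4, a zinc finger factor of pluripotent cells, was measured at 26.3, 24.5 and 24.6 FPKM at 4.5DDC and 7.71, 5.72 and 6.8 FPKM at 6.5DDC (log2 fold change −2.03 ± 0.20, adjusted p = 8.4e-04). Trim71, a let-7 target that represses mRNAs, read 8.51, 7.96 and 8.31 FPKM at 4.5DDC and 2.41, 2.35 and 2.26 FPKM at 6.5DDC (log2 fold change −1.82 ± 0.16, adjusted p = 7.4e-04). Dnmt3b, a de novo DNA methyltransferase, gave 7.12, 6.37 and 5.16 FPKM at 4.5DDC and 2.64, 1.94 and 2.17 FPKM at 6.5DDC (log2 fold change −1.48 ± 0.20, adjusted p = 0.0022). Every library of 6.5DDC lay below every library of 4.5DDC for these 3. Of 38 RNA-binding proteins of fetal and neural tissue, 6 fell (15.8%) and 5 rose (13.2%), with a median of 0.20; rises numbered 2 without 4.5DDC replicate 2 or 3 or 6.5DDC replicate 2 or 3, 3 without 5.5DDC replicate 2 or 3 and 8 without 6.5DDC replicate 1. All genes tested gave 9.53% falls and 9.21% rises. Without 4.5DDC replicate 3, 5.81% of all genes rose, so that the 2 rises there did not stand above them. Among the RNA-binding genes that fell, Lin28a had the largest fall of all named genes. It stood at 28.5, 32 and 24.6 FPKM at 4.5DDC and 2.9, 2.58 and 2.33 FPKM at 6.5DDC (log2 fold change −3.51 ± 0.18, adjusted p = 4.8e-05). Lin28b, which blocks let-7 maturation, stood at 19.3, 20.2 and 19.2 FPKM at 4.5DDC and 8.36, 5.15 and 4.35 FPKM at 6.5DDC (log2 fold change −1.72 ± 0.25, adjusted p = 0.0028). Igf2bp1, an mRNA-binding protein of fetal tissue, stood at 70.8, 81.9 and 69.3 FPKM at 4.5DDC and 24.4, 23.8 and 25.9 FPKM at 6.5DDC (log2 fold change −1.24 ± 0.13, adjusted p = 9.8e-04). None of these RNA-binding genes overlapped between groups.

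Among chromatin genes the falls included proteins of dividing and fetal cells. Of 49 tested, 11 fell (22.4% against 9.53% of all genes) and 3 rose (6.12%, below the 9.21% of all genes), with a median of −0.14; falls numbered 6 without 4.5DDC replicate 2 and 5 without 6.5DDC replicate 2, and rises 1 without 4.5DDC replicate 1 and 0 without 4.5DDC replicate 2 or 5.5DDC replicate 2 or 3 or 6.5DDC replicate 2 or 3. Hmga2, an architectural protein of young neural stem cells, was measured at 43.3, 64.4 and 57.9 FPKM at 4.5DDC and 8.17, 17.3 and 13 FPKM at 6.5DDC (log2 fold change −2.12 ± 0.25, adjusted p = 0.0015). Ezh2, the methyltransferase of Polycomb repressive complex 2, read 133, 136 and 176 FPKM at 4.5DDC and 93, 92.7 and 70.9 FPKM at 6.5DDC (log2 fold change −0.84 ± 0.19, adjusted p = 0.016). Of the RNA-binding list counted above, Ptbp1, a repressor of neuronal splicing, stood at 295, 346 and 237 FPKM at 4.5DDC and 172, 153 and 172 FPKM at 6.5DDC (log2 fold change −1.18 ± 0.22, adjusted p = 0.0074). Cpeb3, which controls translation at synapses, moved the other way, at 1.4, 0.891 and 1.1 FPKM at 4.5DDC and 3.26, 4.26 and 4.43 FPKM at 6.5DDC (log2 fold change 1.77 ± 0.21, adjusted p = 0.0015). None of these 4 genes with values overlapped between groups.

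Some growth factors and a retinoid carrier fell, from lists that moved both ways. Of 37 receptor tyrosine kinase and neurotrophic ligand genes tested, 5 rose (13.5%) and 2 fell (5.41%), with a median of 0.45; rises numbered 2 without 4.5DDC replicate 2 and 3 without 6.5DDC replicate 3. Among all genes 9.21% rose and 9.53% fell, so that the share of falls in this list was below that of all genes. Those 2 falls were Mdk and Ptn. Mdk, a heparin-binding growth factor of the embryonic nervous system, was measured at 321, 457 and 205 FPKM at 4.5DDC and 104, 57.1 and 96.7 FPKM at 6.5DDC (log2 fold change −1.94 ± 0.28, adjusted p = 0.0029). Its only relative, Ptn, read 8.77, 11.7 and 7.38 FPKM at 4.5DDC and 1.7, 1.17 and 1.01 FPKM at 6.5DDC (log2 fold change −2.73 ± 0.31, adjusted p = 0.0013). Crabp1, which binds retinoic acid in the cytoplasm, gave 162, 323 and 189 FPKM at 4.5DDC and 12.2, 44.7 and 51.2 FPKM at 6.5DDC (log2 fold change −2.65 ± 0.52, adjusted p = 0.0093). Groups did not overlap for any of the 3, and Crabp1 was lowest in 6.5DDC replicate 1. Of 33 FGF signalling genes tested, 3 rose (9.09%) and 4 fell (12.1%), with a median of −0.04; falls numbered 1 without 4.5DDC replicate 2 or 6.5DDC replicate 2. Both shares of the FGF list were near those of all genes. The ETS factor Etv5, a target of FGF signalling, stood at 5.17, 9.3 and 8.01 FPKM at 4.5DDC and 2.55, 2.04 and 1.71 FPKM at 6.5DDC (log2 fold change −1.83 ± 0.27, adjusted p = 0.0033), without overlap. Of 39 imprinted genes tested, 5 rose (12.8%) and 3 fell (7.69%), with a median of 0.29; rises numbered 3 without 4.5DDC replicate 2, 8 without 5.5DDC replicate 1 and 10 without 6.5DDC replicate 1, and falls 5 without 5.5DDC replicate 1. Mest, an imprinted gene expressed from the paternal copy, was one of the most abundant genes to fall by at least 1 on the log2 scale. It was measured at 304, 542 and 404 FPKM at 4.5DDC and 129, 173 and 159 FPKM at 6.5DDC (log2 fold change −1.44 ± 0.20, adjusted p = 0.0026), with its groups also apart. Over the retinoid list, 2 of 23 fell (8.7% against 9.53% of all genes) and 3 rose (13%), with a median of −0.34; rises numbered 1 without 4.5DDC replicate 1 or 2 or 3 or 6.5DDC replicate 2 or 3, and falls 1 without 6.5DDC replicate 2 and 4 without 6.5DDC replicate 3. Among the rises was Rbp4, a carrier of retinol, at 3.18, 3.78 and 2.28 FPKM at 4.5DDC and 6.88, 7.49 and 13.8 FPKM at 6.5DDC (log2 fold change 1.61 ± 0.31, adjusted p = 0.0082), without overlap.

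Patterning factors and Wnt genes changed in part. Homeodomain proteins pattern the neural tube and the placodes. In the list of Nkx, Pax, Irx and related factors, 6 of 24 fell (25%, median −0.81), which became 3 without 4.5DDC replicate 2 or 6.5DDC replicate 2. Six4, a homeodomain factor, read 1.82, 1.05 and 1.27 FPKM at 4.5DDC and 0.378, 0.399 and 0.361 FPKM at 6.5DDC (log2 fold change −1.98 ± 0.27, adjusted p = 0.0022). Of 13 motor neuron genes tested, 2 fell (15.4%), with a median of −0.70. Phox2a, a homeodomain factor of cranial motor neurons, gave 5.48, 8.25 and 4.35 FPKM at 4.5DDC and 0.645, 1.5 and 1.87 FPKM at 6.5DDC (log2 fold change −2.15 ± 0.43, adjusted p = 0.01). The groups were apart for Six4 and Phox2a. Of 37 Wnt genes tested, 10 fell (27% against 9.53% of all genes) and 3 rose (8.11%, below the 9.21% of all genes), with a median of −0.30; falls numbered 6 without 4.5DDC replicate 2 and 4 without 6.5DDC replicate 2. Sfrp1, a secreted Wnt antagonist, stood at 49.3, 68.9 and 74.2 FPKM at 4.5DDC and 36.6, 34.2 and 29.6 FPKM at 6.5DDC (log2 fold change −0.95 ± 0.18, adjusted p = 0.0086). The ligand Wnt5a, 1 of the few rises, moved up, at 5.87, 10.8 and 13.3 FPKM at 4.5DDC and 22.9, 26.3 and 26 FPKM at 6.5DDC (log2 fold change 1.28 ± 0.25, adjusted p = 0.0094). Wnt4, another ligand, rose as well, at 7.53, 3.97 and 4.4 FPKM at 4.5DDC and 20.7, 12.4 and 17.4 FPKM at 6.5DDC (log2 fold change 1.66 ± 0.27, adjusted p = 0.0049). No library of either group crossed over for Sfrp1, Wnt5a or Wnt4.

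Some enzymes that feed growth fell. Cells that divide draw on lipid synthesis and on serine-derived carbon units for nucleotides. Of 24 one-carbon, serine and amino acid response genes, 7 fell (29.2%) and 2 rose (8.33%, median −0.39); falls numbered 3 without 4.5DDC replicate 2, 4 without 4.5DDC replicate 3 or 5.5DDC replicate 2 or 6.5DDC replicate 3 and 2 without 6.5DDC replicate 2, and rises 1 without 4.5DDC replicate 2 or 3 or 6.5DDC replicate 2. Shmt1, the cytosolic serine hydroxymethyltransferase, was measured at 16.7, 44 and 30.3 FPKM at 4.5DDC and 14.7, 10.2 and 3.93 FPKM at 6.5DDC (log2 fold change −1.78 ± 0.32, adjusted p = 0.0064). Among 23 cholesterol genes, 4 fell (17.4%), which became 13 without 5.5DDC replicate 1 and 2 without 6.5DDC replicate 2, with a median of −0.60. Of 28 fatty acid synthesis and storage genes, 2 fell (7.14%, below the 9.53% of all genes) and 1 rose, with a median of −0.13; falls numbered 1 without 4.5DDC replicate 1 or 2 or 5.5DDC replicate 2 or 3 or 6.5DDC replicate 1 or 2 or 3 and 7 without 5.5DDC replicate 1, and rises 2 without 4.5DDC replicate 3 or 6.5DDC replicate 1 and 4 without 5.5DDC replicate 1. With replicates 2 and 3 only, an alternative chosen after seeing the data, 9 of these fatty acid genes fell and 5 rose. In that fit 14.8% of all genes fell and 16.5% rose. Fasn, the fatty acid synthase, gave 51.9, 98 and 33.4 FPKM at 4.5DDC and 12.5, 10.9 and 29.3 FPKM at 6.5DDC (log2 fold change −1.55 ± 0.31, adjusted p = 0.0095). Groups did not overlap for Shmt1 or Fasn. In contrast, Lpl, the lipase that frees fatty acids for uptake, stood at 29, 23.1 and 21.1 FPKM at 4.5DDC and 72.1, 63.8 and 60 FPKM at 6.5DDC and rose (log2 fold change 1.43 ± 0.15, adjusted p = 9.6e-04), without overlap.

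**Figure D3:**
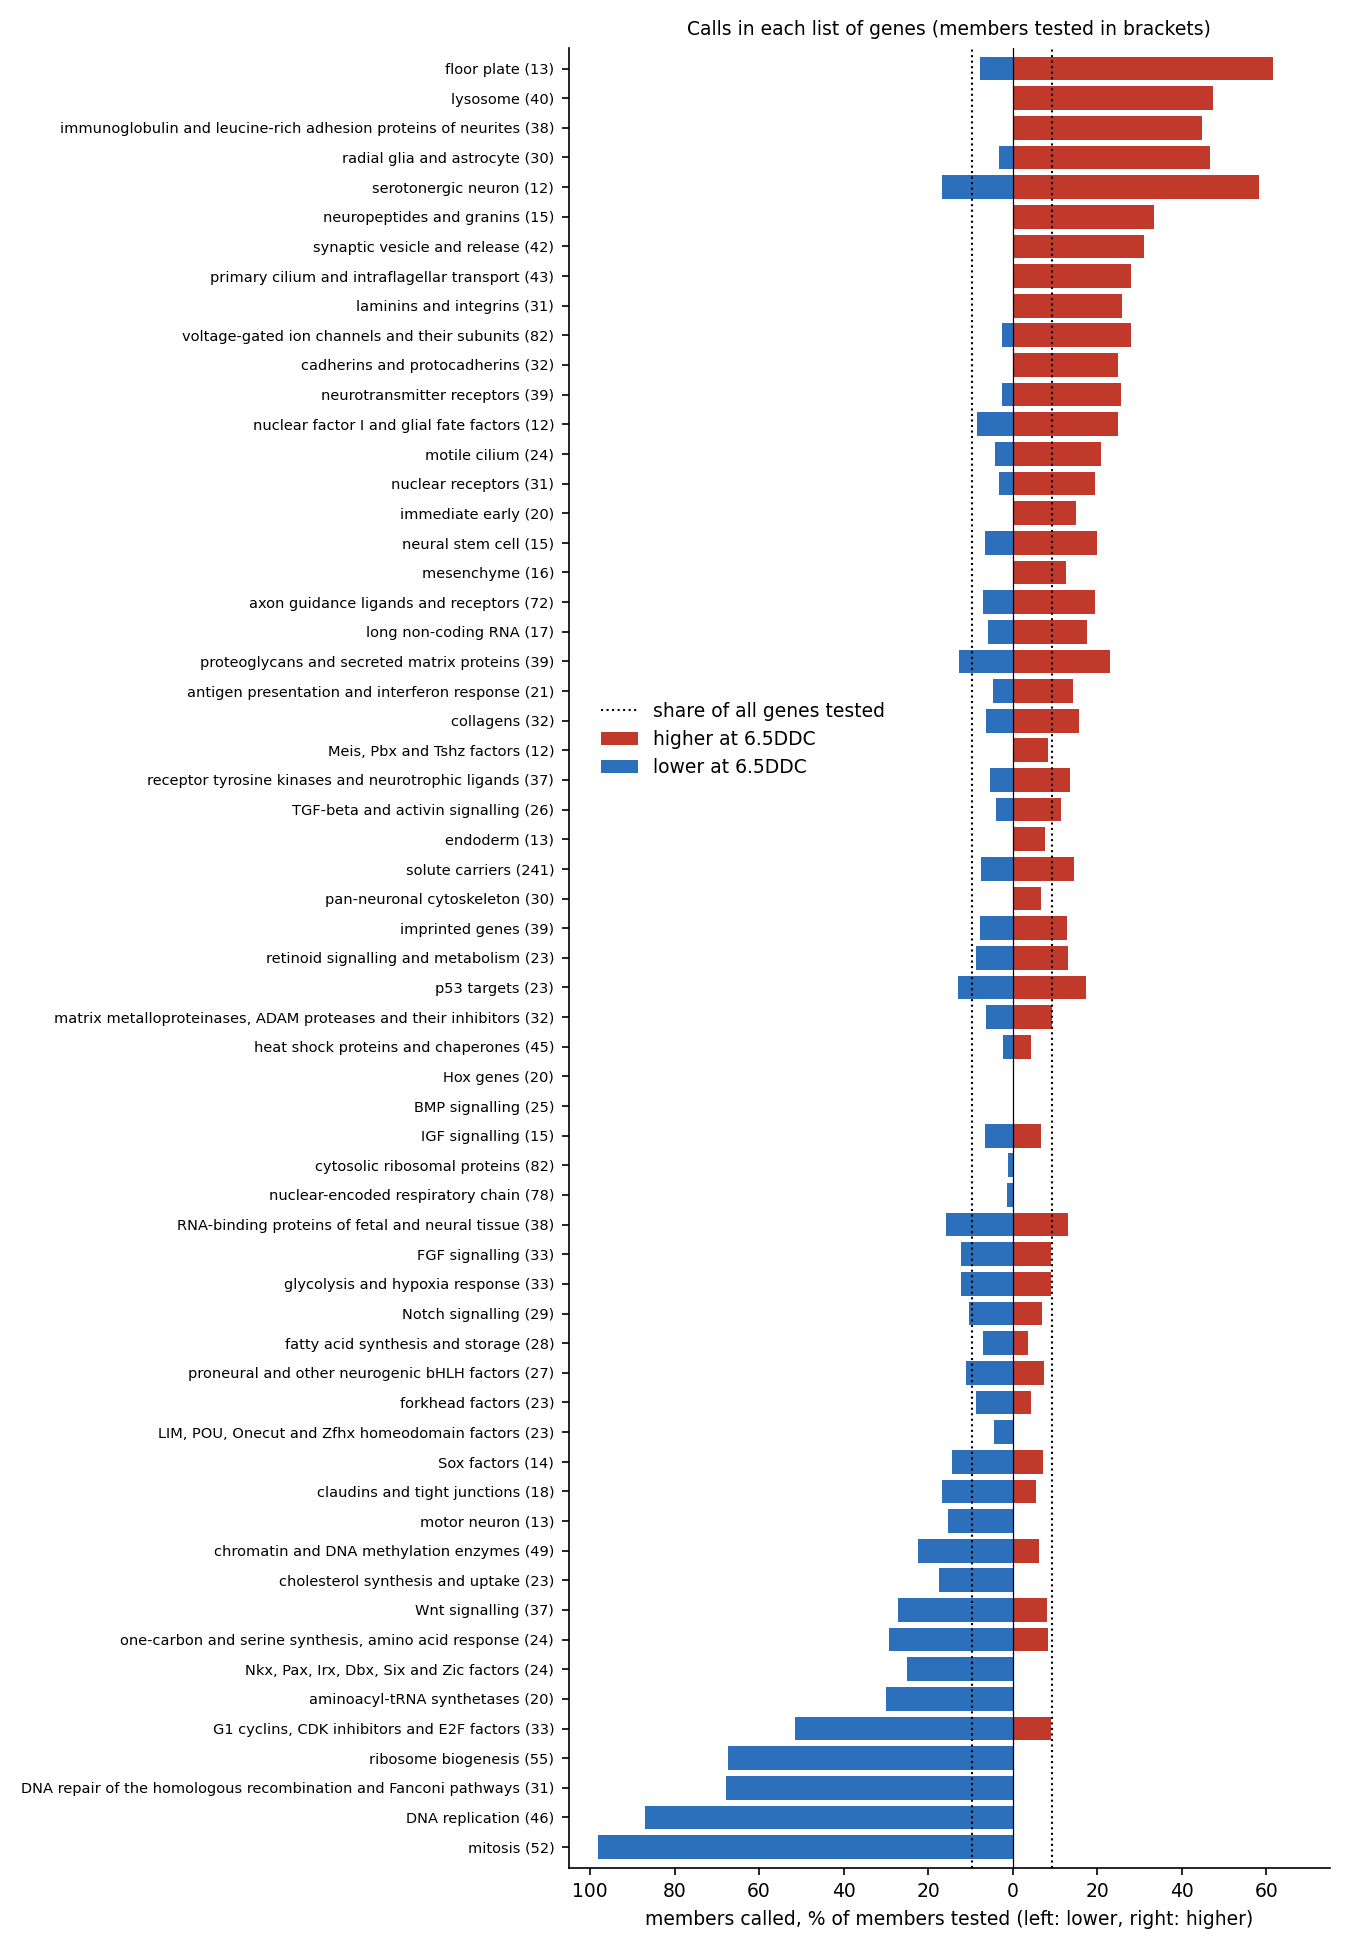
Percent of tested genes called lower (left) and higher (right) in each list with at least 10 genes tested; dotted lines mark 9.53% lower and 9.21% higher over all genes. DNA replication and mitosis lead the falls at 87.0% and 98.1%, and floor plate, serotonergic neuron and lysosome genes stand far beyond the line for rises.

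Adhesion proteins of neurites had the highest median of the 68 lists, close to the 1.56 of serotonergic genes. These immunoglobulin and leucine-rich repeat proteins let axons, dendrites and synapses recognise partners. Of 38 tested, 17 rose (44.7% against 9.21% of all genes, median 1.59), and no single library moved that count by more than 1.5-fold. Alcam, a homophilic adhesion protein, was measured at 53, 29 and 47.1 FPKM at 4.5DDC and 267, 169 and 143 FPKM at 6.5DDC (log2 fold change 2.19 ± 0.28, adjusted p = 0.0018). Cadm3, a synaptic adhesion protein, read 7.39, 12.7 and 8.3 FPKM at 4.5DDC and 37, 76.4 and 108 FPKM at 6.5DDC (log2 fold change 2.95 ± 0.48, adjusted p = 0.0046). Negr1, a membrane-anchored regulator of neurite growth, gave 14.1, 6.15 and 9.05 FPKM at 4.5DDC and 76.8, 46.8 and 38.4 FPKM at 6.5DDC (log2 fold change 2.48 ± 0.36, adjusted p = 0.0028). Groups were apart for the 3, with Alcam and Negr1 highest in replicate 1 and Cadm3 in replicate 3. Lrrn1, the most abundant member, stood at 141, 108 and 144 FPKM at 4.5DDC and 304, 300.4 and 263 FPKM at 6.5DDC (log2 fold change 1.13 ± 0.16, adjusted p = 0.0028), and its groups were apart. Median deviations of the list were −0.37, 0.22 and 0.19 at 4.5DDC and 0.70, 1.61 and 1.68 at 6.5DDC (log2 CPM). The member Cntnap5a had 0 counts in every 4.5DDC library and 5, 37 and 33 at 6.5DDC, at least 7.31-fold above a floor of 3 counts; with that bound in place of its fitted fold the list's median stayed at 1.59.

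Genes of transmitter release rose in part. Their products load, dock and fuse synaptic vesicles. Of 42 tested, 13 were higher (31%, median 0.86); the count was 6 without 4.5DDC replicate 2, 8 without 4.5DDC replicate 3 or 6.5DDC replicate 2 and 7 without 6.5DDC replicate 3. Syt1, the calcium sensor of release, was measured at 1.51, 2.72 and 2.45 FPKM at 4.5DDC and 16.9, 24.2 and 20.2 FPKM at 6.5DDC (log2 fold change 3.19 ± 0.36, adjusted p = 0.0013). Cplx2, which clamps the fusion machinery, read 30.8, 19.2 and 18.3 FPKM at 4.5DDC and 64.6, 58.7 and 76.3 FPKM at 6.5DDC (log2 fold change 1.54 ± 0.20, adjusted p = 0.002). Of 241 solute carriers tested, 35 rose (14.5%) and 18 fell (7.47%), with a median of 0.10; rises numbered 18 without 4.5DDC replicate 2 and 21 without 6.5DDC replicate 2, and falls 8 without 4.5DDC replicate 2 and 6 without 6.5DDC replicate 2. Slc17a8, a vesicular glutamate transporter, gave 1.29, 0.566 and 1.93 FPKM at 4.5DDC and 14.7, 28.4 and 30.4 FPKM at 6.5DDC (log2 fold change 4.23 ± 0.54, adjusted p = 0.0017). All 6.5DDC libraries were above all 4.5DDC libraries for Syt1, Cplx2 and Slc17a8. Of 30 pan-neuronal cytoskeleton genes tested, 2 rose (6.67%), with a median of 0.56; rises numbered 4 without 5.5DDC replicate 1 or 6.5DDC replicate 1. These rises were below the 9.21% of all genes, and the abundant members Tubb2b and Basp1 were not called. With replicates 2 and 3 only, an alternative chosen after seeing the data, 12 of the 30 rose and 1 fell. In that fit 16.5% of all genes rose, so that the list stood above them. Map2, of the dendritic cytoskeleton, stood at 46.3, 46.1 and 51.2 FPKM at 4.5DDC and 79.4, 182 and 199 FPKM at 6.5DDC (log2 fold change 1.65 ± 0.31, adjusted p = 0.0077), without overlap and lowest of the later group in replicate 1. In the same libraries, the 4 neuron markers summed to 57.4, 182 and 126 FPKM at 4.5DDC and 123, 312 and 339 FPKM at 6.5DDC, and their part in the rise of neuronal genes was not tested. Median deviations of the release genes, −0.28, 0.22 and −0.02 at 4.5DDC and 0.29, 1.02 and 1.36 at 6.5DDC (log2 CPM), were lowest in replicate 1 within each group, as those markers were.

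Some ion channel, receptor and guidance genes rose. For comparison, 9.21% of all genes rose and 9.53% fell. Of 82 voltage-gated channel genes tested, 23 rose (28%) and 2 fell (2.44%), with a median of 0.87; rises numbered 15 without 4.5DDC replicate 1, 10 without 4.5DDC replicate 2 or 6.5DDC replicate 2, 14 without 4.5DDC replicate 3 and 12 without 6.5DDC replicate 3, and falls 0 without 4.5DDC replicate 2 or 6.5DDC replicate 2. Of 39 transmitter receptors tested, 10 rose (25.6%) and 1 fell (2.56%), with a median of 0.91; rises numbered 5 without 4.5DDC replicate 1, 3 without 4.5DDC replicate 2 or 3 or 6.5DDC replicate 2, 19 without 5.5DDC replicate 1 and 4 without 6.5DDC replicate 3, and falls 0 without 4.5DDC replicate 2 or 6.5DDC replicate 2. Fgf14, an intracellular partner of sodium channels, was measured at 1.56, 1.47 and 2.18 FPKM at 4.5DDC and 3.62, 6.19 and 5.64 FPKM at 6.5DDC (log2 fold change 1.55 ± 0.30, adjusted p = 0.0091). Of 72 guidance ligands and receptors, 14 rose (19.4%, median 0.23) and 5 fell; rises numbered 7 without 4.5DDC replicate 2, 8 without 4.5DDC replicate 3 or 6.5DDC replicate 2 and 9 without 6.5DDC replicate 3, and falls 2 without 4.5DDC replicate 1 or 2 or 5.5DDC replicate 2 or 3, 3 without 6.5DDC replicate 1 and 0 without 6.5DDC replicate 2. Dcc, the netrin receptor of commissural axons, read 0.145, 0.508 and 0.3 FPKM at 4.5DDC and 1.19, 5.59 and 8.74 FPKM at 6.5DDC (log2 fold change 4.03 ± 0.81, adjusted p = 0.01). Unc5d, a receptor that turns netrin into a repellent, gave 0.279, 0.254 and 0.345 FPKM at 4.5DDC and 1.06, 2.65 and 2.34 FPKM at 6.5DDC (log2 fold change 2.76 ± 0.39, adjusted p = 0.0026). Rasgrf2, an exchange factor that links calcium to Ras, stood at 0, 0 and 0.0185 FPKM at 4.5DDC and 0.987, 3.54 and 2.47 FPKM at 6.5DDC (log2 fold change 7.62 ± 1.30, adjusted p = 0.0054). Its 4.5DDC level was at or near 0, so its fold has little to rest on. None of these 4 overlapped, and Dcc, Unc5d, Rasgrf2 and Fgf14 were all lowest of the later group in replicate 1.

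Some peptide and serotonergic genes rose. Granins and prohormones fill dense-core vesicles, and serotonergic neurons are the later product of these stem cells. Of 15 neuropeptide and granin genes, 5 rose (33.3%, median 1.02), which became 3 without 4.5DDC replicate 2 or 6.5DDC replicate 2 or 3. Chgb, a granin, was measured at 9.33, 9.28 and 8.6 FPKM at 4.5DDC and 50.3, 85.8 and 117 FPKM at 6.5DDC (log2 fold change 3.19 ± 0.39, adjusted p = 0.0015). Pdyn, the dynorphin precursor, read 0.615, 0.0922 and 0.142 FPKM at 4.5DDC and 5.32, 5.28 and 6.94 FPKM at 6.5DDC (log2 fold change 4.24 ± 0.75, adjusted p = 0.0062). Cpe, which trims peptide precursors, gave 69.1, 79 and 75.9 FPKM at 4.5DDC and 119, 169.9 and 171 FPKM at 6.5DDC (log2 fold change 1.02 ± 0.17, adjusted p = 0.0046). The groups stayed apart for all 3. Of 12 serotonergic genes tested, 7 rose (58.3%) and 2 fell, Ddc and Tph1 (median 1.56), and no library moved the count of rises by more than 1.5-fold; the count of falls was 1 without 4.5DDC replicate 2 or 3 or 5.5DDC replicate 2 or 3 or 6.5DDC replicate 2 or 3. Slc18a2, the vesicular monoamine transporter, stood at 12.4, 4.49 and 5.46 FPKM at 4.5DDC and 50.9, 37.4 and 42.4 FPKM at 6.5DDC (log2 fold change 2.54 ± 0.37, adjusted p = 0.0027). Fev, a transcription factor of serotonergic identity, went from near 0 to a low level, at 0, 0.0521 and 0.0806 FPKM at 4.5DDC and 1.29, 1.27 and 2.54 FPKM at 6.5DDC (log2 fold change 5.14 ± 0.77, adjusted p = 0.0031). Ddc, the decarboxylase that completes serotonin, moved against them, at 10.2, 14.1 and 13.9 FPKM at 4.5DDC and 4.05, 5.89 and 5.66 FPKM at 6.5DDC (log2 fold change −1.53 ± 0.31, adjusted p = 0.011). None of these overlapped either.

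**Figure D4:**
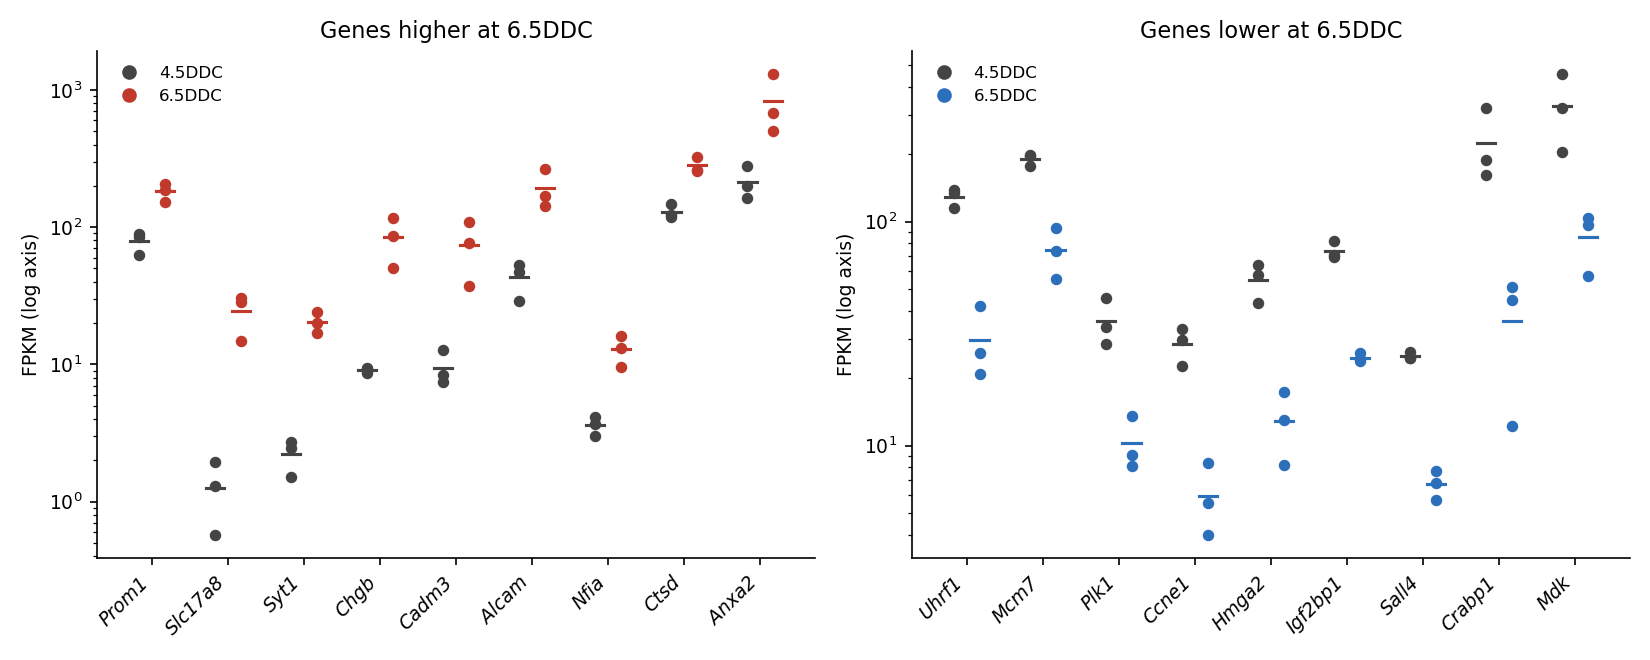
FPKM (log scale) of genes that rose (left panel) and fell (right panel) in each library of 4.5DDC and 6.5DDC; points are libraries and bars group means. Syt1 went from at most 2.72 to at least 16.9 FPKM, and Uhrf1 from at least 116 to at most 42.0 FPKM.

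Radial glial genes rose in part. Radial glia are the later form of neural stem cell, and nuclear factor I proteins promote their glial genes. Of 30 radial glia and astrocyte genes tested, 14 rose (46.7%) and 1 fell (3.33%), with a median of 1.09; rises numbered 9 without 4.5DDC replicate 1 or 3 or 5.5DDC replicate 2, 8 without 4.5DDC replicate 2 and 7 without 6.5DDC replicate 2, and falls 2 without 4.5DDC replicate 1 or 3. Vim and Fabp7, abundant members, were not called. Fabp7 stood at 142, 439 and 504 FPKM at 4.5DDC and 655, 911 and 737 FPKM at 6.5DDC, without overlap (log2 fold change 1.08 ± 0.46, adjusted p = 0.13). Its adjusted p ran from 0.013 to 0.30 over all alternatives, so that some alternative called it. Ptprz1, a receptor phosphatase of radial glia, was measured at 2.96, 4.54 and 8.33 FPKM at 4.5DDC and 26, 33.9 and 35.5 FPKM at 6.5DDC (log2 fold change 2.57 ± 0.35, adjusted p = 0.0023). Of 12 nuclear factor I and glial fate factors tested, 3 rose (25%) and 1 fell (8.33%), with a median of 0.80; rises numbered 7 without 6.5DDC replicate 1, and falls 2 without 4.5DDC replicate 1 or 5.5DDC replicate 1 and 0 without 4.5DDC replicate 2 or 5.5DDC replicate 2 or 3 or 6.5DDC replicate 1 or 2 or 3. Nfia read 3.65, 3.01 and 4.15 FPKM at 4.5DDC and 9.54, 13.3 and 16 FPKM at 6.5DDC (log2 fold change 1.96 ± 0.23, adjusted p = 0.0015). Nfib gave 0.625, 1.88 and 2.02 FPKM at 4.5DDC and 4.17, 7.86 and 4.73 FPKM at 6.5DDC (log2 fold change 2.18 ± 0.33, adjusted p = 0.0036). Ptprz1, Nfia and Nfib were higher in every library of 6.5DDC than in any of 4.5DDC, and Nfib was highest there in replicate 2. Of 14 Sox factors tested, 1 rose (7.14%) and 2 fell (14.3%), with a median of 0.23; rises numbered 2 without 5.5DDC replicate 1 or 6.5DDC replicate 1, and falls 1 without 4.5DDC replicate 2 or 6.5DDC replicate 1 or 2. Over all genes 9.21% rose and 9.53% fell, and counts this small say little of the class. Sox6, the only Sox factor that rose, stood at 7.3, 5.31 and 6.71 FPKM at 4.5DDC and 14.2, 14.3 and 12.7 FPKM at 6.5DDC (log2 fold change 1.09 ± 0.16, adjusted p = 0.0027). Its groups did not overlap. Gja1, the gap junction protein connexin 43, went the other way, at 23.5, 34.9 and 36 FPKM at 4.5DDC and 11.7, 7.84 and 6.03 FPKM at 6.5DDC (log2 fold change −1.89 ± 0.27, adjusted p = 0.0026), also without overlap. Sox2 was not called at 88, 78.2 and 80.1 FPKM at 4.5DDC and 84.9, 96 and 82 FPKM at 6.5DDC (log2 fold change 0.09 ± 0.12, adjusted p = 0.65), and the groups overlapped.

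Floor plate genes had the largest share of rises among lists with at least 10 genes tested, 61.5%. The floor plate is the ventral midline next to these stem cells, which secretes guidance cues. Of 13 tested, 8 rose and 1 fell (median 1.02); rises numbered 3 without 4.5DDC replicate 2 or 3 or 6.5DDC replicate 2 and 5 without 5.5DDC replicate 2 or 3 or 6.5DDC replicate 1 or 3; falls numbered 0 without 4.5DDC replicate 2 or 6.5DDC replicate 2. Spon1, which encodes the secreted F-spondin, was measured at 239, 124 and 151 FPKM at 4.5DDC and 491, 472 and 540.2 FPKM at 6.5DDC (log2 fold change 1.54 ± 0.26, adjusted p = 0.0051). Ferd3l, a bHLH factor of the midline, read 26.4, 14.9 and 17.2 FPKM at 4.5DDC and 104, 58.2 and 54.4 FPKM at 6.5DDC (log2 fold change 1.92 ± 0.33, adjusted p = 0.0056). Both were apart between groups, and Ferd3l was highest in 6.5DDC replicate 1. Slit2, a repellent for axons whose groups were apart, stood at 376, 205 and 319 FPKM at 4.5DDC and 774, 663 and 509.6 FPKM at 6.5DDC (log2 fold change 1.09 ± 0.26, adjusted p = 0.021), with a call lost at adjusted p of 0.075 without 4.5DDC replicate 2, 0.053 without 4.5DDC replicate 3 and 0.062 without 6.5DDC replicate 2. Over all alternatives the p for Slit2 ran from 8.4e-04 to 0.075. Foxa2, which specifies floor plate and endoderm, was not called at 85.6, 62.2 and 46.5 FPKM at 4.5DDC and 64.1, 77.4 and 81.2 FPKM at 6.5DDC (log2 fold change 0.18 ± 0.21, adjusted p = 0.58), and its groups overlapped. Its adjusted p ran from 0.039 to 0.97 over all alternatives, so that some alternative called it. Summed levels of the list were 1819, 1061 and 1240.0 FPKM at 4.5DDC and 3301, 2699 and 2628 FPKM at 6.5DDC, and the part of floor plate cells in these rises was not tested.

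Lysosomal genes rose in part. Their products digest proteins, sugars and lipids. Of 40 tested, 19 rose (47.5%, median 0.71), which became 10 without 4.5DDC replicate 2. Ctsd, an aspartyl protease, was measured at 146, 123 and 119 FPKM at 4.5DDC and 324, 262 and 258 FPKM at 6.5DDC (log2 fold change 1.03 ± 0.18, adjusted p = 0.0065). Psap, the precursor of sphingolipid activators, read 179, 178 and 149 FPKM at 4.5DDC and 273, 293 and 365 FPKM at 6.5DDC (log2 fold change 0.88 ± 0.13, adjusted p = 0.0029). Groups did not overlap for either gene, and the median deviations of the list, 0.22, −0.13 and −0.10 at 4.5DDC and 0.78, 0.71 and 0.66 at 6.5DDC (log2 CPM), did not set replicate 1 below the others. Letters of the lysosomal E-box, TCACGTGA, lay in promoters of 4 of 32 lysosome genes matched (12.5%), against 2.14% of tested genes and 0.974% of all promoters.

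Some cilium genes rose, by a count that hung on single libraries. Neural stem cells carry a primary cilium towards the ventricle. Of 43 primary cilium genes tested, 12 rose (27.9% against 9.21% of all genes, median 0.31); the count was 1 without 4.5DDC replicate 2, 6 without 4.5DDC replicate 3 and 3 without 6.5DDC replicate 2. In the fit without 4.5DDC replicate 2, 3.36% of all genes were higher, so that this list did not stand above them. Bbs9, of the complex that carries cargo into cilia, was measured at 12.4, 8.6 and 13.5 FPKM at 4.5DDC and 21.4, 25.9 and 25.8 FPKM at 6.5DDC (log2 fold change 1.05 ± 0.22, adjusted p = 0.012), without overlap, and its call was lost at adjusted p of 0.054 without 4.5DDC replicate 2 and 0.054 without 6.5DDC replicate 2. Over all alternatives the p for Bbs9 ran from 2.7e-04 to 0.054.

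Matrix and adhesion genes of the cell surface rose in part. The shares to compare are 9.21% higher and 9.53% lower over all genes, and collagen falls lay below the latter. Integrins anchor the stem cells to laminin, and cadherins join them to each other. Of 31 laminin and integrin genes, 8 rose (25.8%, median 0.75), which became 3 without 4.5DDC replicate 2 or 6.5DDC replicate 2 and 4 without 4.5DDC replicate 3. Itgav, an integrin subunit, was measured at 24.3, 24.8 and 19.5 FPKM at 4.5DDC and 35.1, 45.6 and 47.6 FPKM at 6.5DDC (log2 fold change 0.84 ± 0.15, adjusted p = 0.0058). Nid1, a linker of basement membranes, read 8.38, 6.7 and 5.04 FPKM at 4.5DDC and 37.5, 16.7 and 17.2 FPKM at 6.5DDC (log2 fold change 1.84 ± 0.32, adjusted p = 0.0059). Anxa2, a membrane-binding protein and the most abundant gene to rise by at least 1 on the log2 scale, gave 277, 163 and 199 FPKM at 4.5DDC and 1309.7, 678 and 498 FPKM at 6.5DDC (log2 fold change 1.86 ± 0.33, adjusted p = 0.0065). All 3 were apart between groups, and Nid1 and Anxa2 were highest in replicate 1. Of 32 cadherins and protocadherins, 8 rose (25%, median 0.46), which became 5 without 4.5DDC replicate 2. Cdh6, a classical cadherin, stood at 47.2, 39.2 and 42.7 FPKM at 4.5DDC and 98.3, 74.6 and 74.4 FPKM at 6.5DDC (log2 fold change 0.93 ± 0.16, adjusted p = 0.0051), without overlap. Of 39 proteoglycans and secreted matrix proteins, 9 rose (23.1%) and 5 fell (12.8%), with a median of 0.42; rises numbered 4 without 4.5DDC replicate 2 and 5 without 4.5DDC replicate 3 or 6.5DDC replicate 2, and falls 2 without 4.5DDC replicate 1 or 2 and 3 without 6.5DDC replicate 2 or 3. Reln, a secreted guide of migrating neurons, stood at 0.116, 0.544 and 0.152 FPKM at 4.5DDC and 0.558, 1.57 and 1.93 FPKM at 6.5DDC (log2 fold change 2.75 ± 0.45, adjusted p = 0.0046). In contrast, Sdc1, a heparan sulfate proteoglycan, stood at 34.9, 53.6 and 30.9 FPKM at 4.5DDC and 12.4, 9.94 and 12.7 FPKM at 6.5DDC and fell (log2 fold change −1.78 ± 0.22, adjusted p = 0.0015). Neither overlapped between groups, though for Reln the nearest libraries were close. Of 32 collagens, 5 rose (15.6%) and 2 fell (6.25%), with a median of 0.63; rises numbered 2 without 4.5DDC replicate 2, 11 without 6.5DDC replicate 1 and 3 without 6.5DDC replicate 2, and falls 1 without 4.5DDC replicate 2 or 6.5DDC replicate 2. Col2a1, a fibrillar collagen and 1 of those that fell, stood at 21.7, 16.6 and 13.2 FPKM at 4.5DDC and 4.26, 6.03 and 7.36 FPKM at 6.5DDC (log2 fold change −1.52 ± 0.27, adjusted p = 0.0063), also without overlap.

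Some nuclear receptors rose. Nuclear receptors switch genes in response to small lipophilic ligands. Of 31 tested, 6 rose (19.4% against 9.21% of all genes) and 1 fell (3.23% against 9.53%). The list's median was −0.06 against 0.0040 over all genes tested. No library moved the count of rises by more than 1.5-fold. Falls numbered 2 without 6.5DDC replicate 1, 0 without 6.5DDC replicate 2 and 3 without 6.5DDC replicate 3. Thra, the thyroid hormone receptor alpha, was measured at 24.2, 29.9 and 22.4 FPKM at 4.5DDC and 47.9, 67.6 and 86.7 FPKM at 6.5DDC (log2 fold change 1.27 ± 0.20, adjusted p = 0.0039). Nr4a2, an orphan receptor of aminergic neurons and an immediate early gene, read 2.59, 1 and 1.18 FPKM at 4.5DDC and 5.45, 15.7 and 20.5 FPKM at 6.5DDC (log2 fold change 2.96 ± 0.42, adjusted p = 0.0027). Of 17 listed long non-coding RNAs, 3 rose (17.6%) and 1 fell (median 0.45). Falls numbered 0 without 4.5DDC replicate 2 or 3 or 6.5DDC replicate 2. Over all 336 long non-coding RNAs tested, by annotation, 21 rose (6.25%) and 10 fell (2.98%). Both shares of the whole class were below the 9.21% higher and 9.53% lower of all genes. Rmst, a long non-coding RNA of neural progenitors, gave 28.3, 18.5 and 30.2 FPKM at 4.5DDC and 53.4, 164 and 128 FPKM at 6.5DDC (log2 fold change 2.38 ± 0.29, adjusted p = 0.0015). For Thra, Nr4a2 and Rmst the groups did not overlap, and replicate 1 was lowest at 6.5DDC. Erbb4, a neuregulin receptor, stood at 0.7, 1.06 and 1.5 FPKM at 4.5DDC and 2.6, 8.18 and 7.42 FPKM at 6.5DDC (log2 fold change 2.63 ± 0.43, adjusted p = 0.0046). Its groups did not overlap, and replicate 1 was lowest at 6.5DDC.

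Few calls were made in some lists, which does not show that their genes stayed the same. Hox genes, which set the level along the hindbrain, numbered 20 tested, with a median of 0.65. Higher were 0 by edgeR after Benjamini-Hochberg adjustment, 2 at unadjusted p under 0.05, 1 by DESeq2 and 0 by limma voom; the edgeR count was 1 without 5.5DDC replicate 1 and 3 without 6.5DDC replicate 1. Lower were 0 by edgeR after Benjamini-Hochberg adjustment, 0 at unadjusted p under 0.05, 0 by DESeq2 and 0 by limma voom. The median deviations of the Hox list, −0.63, 0.49 and 0.44 at 4.5DDC and −1.25, 1.30 and 1.44 at 6.5DDC (log2 CPM), set replicate 1 below replicates 2 and 3 at each time. With replicates 2 and 3 only, an alternative chosen after seeing the data, 10 of the 20 were called higher and 0 lower. Hoxd3, of paralogue group 3, was lowest in replicate 1 at each time, at 0.683, 20.6 and 18.6 FPKM at 4.5DDC and 1.1, 23 and 37.1 FPKM at 6.5DDC (log2 fold change 0.65 ± 1.34, adjusted p = 0.76), with overlapping groups. Its adjusted p ran from 0.025 to 0.99 over all alternatives, so that some alternative called it. BMP signalling had 25 genes tested and a median of 0.10, of which higher were 0 by edgeR after Benjamini-Hochberg adjustment, 3 at unadjusted p under 0.05, 2 by DESeq2 and 0 by limma voom; the edgeR count was 1 without 4.5DDC replicate 1 or 5.5DDC replicate 1 or 6.5DDC replicate 1. Those lower were 0 by edgeR after Benjamini-Hochberg adjustment, 3 at unadjusted p under 0.05, 3 by DESeq2 and 0 by limma voom; the edgeR count was 3 without 4.5DDC replicate 1 or 5.5DDC replicate 1 and 1 without 6.5DDC replicate 1. Nuclear genes of the respiratory chain had a median of −0.13 over 78 tested, and higher were 0 by edgeR after Benjamini-Hochberg adjustment, 3 at unadjusted p under 0.05, 1 by DESeq2 and 0 by limma voom; the edgeR count was 1 without 6.5DDC replicate 3. Those lower were 1 by edgeR after Benjamini-Hochberg adjustment, 8 at unadjusted p under 0.05, 2 by DESeq2 and 0 by limma voom; the edgeR count was 0 without 4.5DDC replicate 1 or 2 or 5.5DDC replicate 2 or 3 or 6.5DDC replicate 2 or 3, 2 without 4.5DDC replicate 3 and 3 without 6.5DDC replicate 1.

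Markers of some other cell types were present. Mesenchyme markers (Twist1, Prrx1, Col1a1, Col1a2, Col3a1 and Dcn), of which Dcn was the most abundant in every library, summed to 10.6, 22.7 and 31.6 FPKM at 4.5DDC and 31.5, 98.4 and 114 FPKM at 6.5DDC. Only Twist1 of these 6 was called higher (log2 fold change 0.74 ± 0.19, adjusted p = 0.028), and the call was lost in 8 of the 22 alternatives, among them at adjusted p of 0.077 without 4.5DDC replicate 1, 0.071 without 4.5DDC replicate 2, 0.061 without 4.5DDC replicate 3, 0.054 without 5.5DDC replicate 2, 0.053 without 6.5DDC replicate 1 and 0.079 without 6.5DDC replicate 2; over all alternatives the p for Twist1 ran from 0.0033 to 0.079. A wider list of 20 mesenchyme genes summed to 193, 262 and 131 FPKM at 4.5DDC. At 6.5DDC it summed to 166, 216 and 230 FPKM, and these groups overlapped. Of its 16 genes tested, 2 were called higher, with a median of 0.98, and 0 without 4.5DDC replicate 2 or 6.5DDC replicate 2. Endoderm markers (Foxa2, Sox17, Gata4, Gata6, Afp, Ttr and Epcam), mostly Foxa2, summed to 89.7, 65.3 and 48.1 FPKM at 4.5DDC and 77.6, 80.3 and 83.8 FPKM at 6.5DDC, and none of the 5 tested was called. Apart from Foxa2, which also marks the floor plate, all of them but Epcam were highest in 6.5DDC replicate 1. Gata4 stood at 2.54, 1.15 and 0.376 FPKM at 4.5DDC and 7.62, 1.47 and 1.53 FPKM at 6.5DDC. Ttr read 0.165, 0.264 and 0.102 FPKM at 4.5DDC and 2.34, 0.268 and 0.233 FPKM at 6.5DDC. Epcam was highest in 4.5DDC replicate 2, at 1.28 FPKM. Neural crest markers (Sox10, Foxd3, Tfap2a and Tfap2b) summed to at most 0.621 FPKM in any library, with Sox10 at 0 in every 4.5DDC library and Foxd3 at 0 in every 6.5DDC library. Endothelial markers (Pecam1, Cdh5, Kdr and Tek) summed to 1.21, 3.9 and 4.07 FPKM at 4.5DDC and 8.69, 5.97 and 5.3 FPKM at 6.5DDC; Kdr alone was called, at 0.279, 0.657 and 0.643 FPKM at 4.5DDC and 1.45, 2.04 and 1.93 FPKM at 6.5DDC (log2 fold change 1.76 ± 0.37, adjusted p = 0.012), without overlap. Blood and microglia markers (Ptprc, Gata1 and Csf1r) summed to at most 0.938 FPKM, mostly Csf1r, with Gata1 at 0 in every 6.5DDC library. The part of these cells in the matrix and adhesion results was not tested.

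Gene families, taken from symbols, were counted as well. Of 76 families with at least 15 genes tested, nucleoporins (Nup) had the largest share of falls, 12 of 20, against 9.53% of all genes, followed by Rad genes, 8 of 18. Kinesins (Kif) had 13 falls and 5 rises among 35, Cep genes of the centrosome 10 and 1 among 31, Cdk genes 7 and 2 among 24, and Cdc genes 9 and 2 among 31. Largest among shares of rises, against 9.21% of all genes, were orphan G protein-coupled receptors (Gpr), 11 of 38, beta protocadherins (Pcdhb), 5 of 21, synaptotagmins (Syt), 3 of 15, and ATPase and ATP synthase subunits (Atp), 12 of 65. Pseudogenes, 975 of them tested, gave 11 rises (1.13%) and 68 falls (6.97%), both below the shares of all genes; their reads may belong to the parent genes, as for Gm8203 and Gm4617, and they are uncertain.

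Genes that rose were longer at the median. Protein-coding genes called higher spanned a median of 44.0 kb, those called lower 20.9 kb, and all tested 26.3 kb. Over 100 kb were 29.0% of the higher, 9.26% of the lower and 15.8% of all. Of the longest 10% of genes 22.2% rose and 4.69% fell, and of the shortest 10% 5.42% rose and 9.70% fell. Dcc, Erbb4 and Negr1 are among such long genes.

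**Figure D5:**
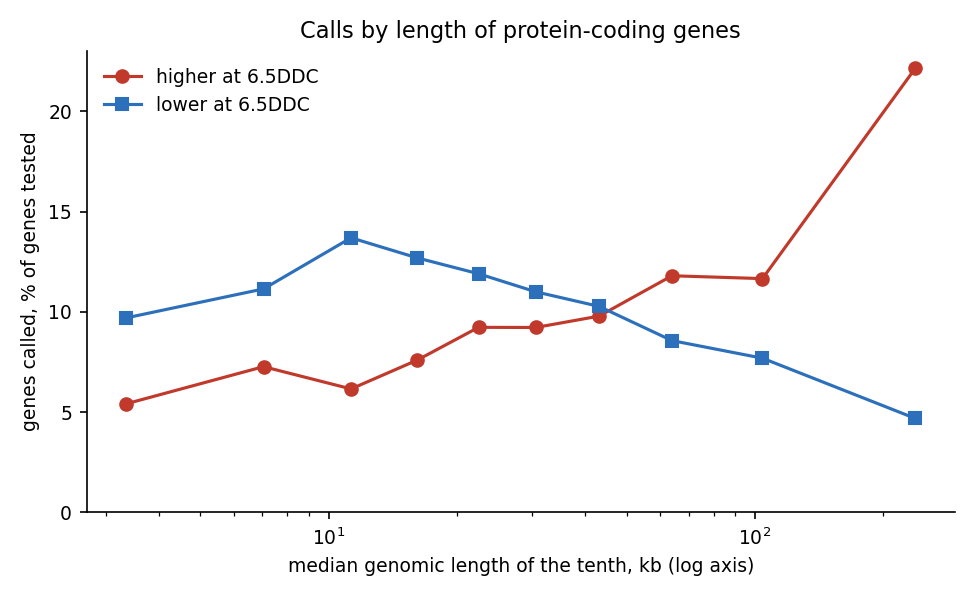
Percent of protein-coding genes called higher and lower in 10 equal groups of genes ordered by genomic length, from shortest to longest. The share called higher climbs from 5.42% to 22.2%, though not at every step, and the share called lower is 9.70% in the shortest group, peaks in the third and ends at 4.69%.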

How the data were processed

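RNA of 9 prominin-1 sorted samples was sequenced by the authors, 3 at each of 3 time points, as single-end reads from polyA-selected TruSeq libraries. Per the submitters' processing notes, reads were handled with CASAVA and bcl2fastq 1.8.3 and aligned with TopHat2 2.0.4 to the mouse genome (GRCm38, mm10). The deposited count table holds estimated counts per gene symbol, made by the authors with HTSeq 0.6.1; 98 of 38197 symbols held values that were not whole and were rounded. The deposited FPKM table (fragments scaled to transcript length and library size) was made by the authors with Cufflinks 2.1.1 and was used for levels only. The authors' log2 voom table was not used here, and the number of sample columns of the tables used that were left out was 0.

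Counts of all 9 libraries were fitted in R 4.3.3 with edgeR 4.0.16 (filterByExpr, TMM scaling with factors of 0.951 to 1.04, quasi-likelihood test with 6 residual degrees of freedom, common dispersion 0.0733). The contrast was 6.5DDC against 4.5DDC, and p-values were adjusted by Benjamini-Hochberg over 14742 genes and called under 0.05. The standard error was the absolute log2 fold change divided by the square root of F. The fit was tested on simulated data. Alternatives used other scalings, filters and libraries, DESeq2 1.42.0 and limma 3.58.1, and a fit of replicates 2 and 3 only was added after seeing the data. Gene type and length came from GENCODE M21, promoters (250 bases before to 50 after the start) from RefSeq, and figures from Python 3.11.15.

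The members and the 68 lists were chosen with earlier results of these data known. Genes were named by rule: the 15 largest called changes in each direction that averaged 2 FPKM or more where higher and showed no overlap between groups, the 5 most abundant called genes changed by at least 1 on the log2 scale, and for each list the 3 largest called changes in each direction with at least 1 FPKM and its 2 most abundant members. Cell type markers were listed separately. Genes of the Gli pathway were left out. Of the genes so named, those described were mostly ones whose call was kept in every alternative.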

Additional observations from a re-analysis of the deposited data

How the results depend on the processing

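No named gene with a call reversed its direction under any of the 22 alternatives, the only results scored for reversal. List medians were scored by size alone. Of the comparisons of a list median with an alternative, 56 moved by at least the list's spread between libraries of a group. The other 1440 stayed within it. Most of the moved medians came with log2(FPKM + 1) (14), replicates 2 and 3 only (9) and without 6.5DDC replicate 1 (8). Shares are of the genes each fit tested. Genes changed made up 18.7%, from 7.56% to 20.9% when 1 library at a time was left out; with replicates 2 and 3 only, an alternative chosen after seeing the data, they made up 31.3% (4586 genes). Genes higher made up 9.21%, from 3.36% to 10.7% with 1 library left out and 16.5% with replicates 2 and 3 only; higher by at least 1 on the log2 scale were 5.12%, from 2.37% to 6.34% with 1 library left out, 10.1% with replicates 2 and 3 only and 2.88% by limma trend on log2(FPKM + 1), where the added 1 shrinks folds of low genes. Genes lower made up 9.53%, from 3.70% to 10.3% with 1 library left out, 6.15% with only the 6 libraries and 14.8% with replicates 2 and 3 only; lower by at least 1 were 4.84%, from 2.80% to 5.52% with 1 library left out. Testing every gene with any count above 0 made these shares 11.2%, 6.01% and 5.22% of 23118 genes for changed, higher and lower, and 2.94% for lower by at least 1; the counts themselves were 2596, 1389, 1207 and 679. The cause was not tested. DESeq2 called 1854 genes higher and 1827 lower, and limma voom 1274 and 1386. Scaling by library totals only gave 1382 and 1424, and by upper quartile 1448 and 1324. Of 350 named genes 268 were called, and 132 kept their call under every alternative; 116 lost it without 6.5DDC replicate 2 and 112 without 4.5DDC replicate 2.

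With replicate number as a block, 3418 genes were called (1913 higher, 1505 lower). Numbers paired the samples only in part: residual correlations between 4.5DDC and 6.5DDC were 0.383, −0.0396 and −0.215 for replicates 1, 2 and 3. Replicate 1 correlated best with its own number. In contrast, 4.5DDC replicate 2 correlated best with 6.5DDC replicate 3 (0.46), and 4.5DDC replicate 3 with 6.5DDC replicate 2 (0.487).

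With 3 libraries a group and time as the only difference, culture age and any handling on the day cannot be told apart. Changes in RNA per cell and in the mix of sorted cells were not separated, and levels of near-identical copies and pseudogenes are uncertain. Entries of the lists whose symbols did not match the tables were not analysed here.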
